A study of Mus musculus with 8 samples.

Results

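The globin genes were followed in RNA from sorted mouse bone marrow. They are 7 genes, taken by name from the files and summed per NCBI gene ID: the alpha-type genes Hba-a1, Hba-a2 and Hba-x and the beta-type genes Hbb-bs, Hbb-bt, Hbb-bh1 and Hbb-y. They stand among 21991 gene IDs with exons. The 8 libraries come from C57BL/6 mice of 8 to 10 weeks, with no mutation, transgene or treatment named in the labels. In 4 libraries, labelled HSC for hematopoietic stem cells, the sorted cells were lineage-negative, c-Kit-positive, Sca1-positive and CD150-positive and lacked CD34. In the other 4, labelled HPC for hematopoietic progenitor cells, the gate was the same except that CD34 was present. The labels do not say how many animals gave each sort or that libraries came from separate animals, so a p-value here speaks of the spread among these samples, and that spread could be technical.

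Globins carry oxygen in red cells. Adult hemoglobin pairs alpha chains, made by Hba-a1 and Hba-a2, with beta chains, made in C57BL/6 mice by Hbb-bs and Hbb-bt, while Hba-x (zeta), Hbb-y (epsilon) and Hbb-bh1 are used by the primitive red cells of the early embryo. The genes lie in an alpha and a beta cluster on different chromosomes, each under distant enhancers, and reach very high RNA levels only in maturing erythroblasts, well downstream of stem cells.

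The adult genes come in near-identical pairs, which bears on how far their reads can be told apart. In the coding sequence of the GRCm38 annotation, Hba-a1 and Hba-a2 differed at 1 of 426 bases, and the longest stretch they share ran over 380 bases. Hbb-bs and Hbb-bt differed at 1 of 441 bases, with a shared run of 416. The stretches around the differing base are given 5′ to 3′, with that base in capitals. They cover coding bases 345 to 404 for the alpha pair and 370 to 429 for the beta pair, counted from the start codon.
Hba-a1: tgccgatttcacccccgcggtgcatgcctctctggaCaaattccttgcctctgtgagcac
Hba-a2: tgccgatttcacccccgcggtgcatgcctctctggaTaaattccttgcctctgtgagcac
Hbb-bs: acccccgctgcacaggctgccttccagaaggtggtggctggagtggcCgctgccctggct
Hbb-bt: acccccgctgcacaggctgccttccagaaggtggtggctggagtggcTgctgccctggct
Across types the coding sequences are far less alike. Hba-a1 matched Hba-x in 62.8% of aligned positions and Hbb-bs in 56.2%, and Hbb-bs matched Hbb-bh1 in 73.9% and Hbb-y in 74.4%.

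The promoters of the pairs differ in how much they share. The 120 bases before the start site of the adult genes are given 5′ to 3′ on the gene's strand, from RefSeq (GRCm38.p6). Capitals mark the letters CACCC (or, from the other strand, GGGTG) of the CACCC box. They also mark CCAAT (or ATTGG) of the CCAAT box and TATAA (or TTATA) of the TATA box, and no marked match overlaps another. The windows are chr11:32283552-32283671 for Hba-a1 and chr11:32296372-32296491 for Hba-a2, on the plus strand, and chr7:103827929-103828048 for Hbb-bs and chr7:103813924-103814043 for Hbb-bt, on the minus strand.
Hba-a1: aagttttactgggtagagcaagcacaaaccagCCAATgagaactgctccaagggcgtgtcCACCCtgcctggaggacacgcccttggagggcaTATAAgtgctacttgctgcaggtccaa
Hba-a2: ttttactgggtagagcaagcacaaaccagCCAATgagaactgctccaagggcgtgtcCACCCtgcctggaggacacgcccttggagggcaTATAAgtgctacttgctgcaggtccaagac
Hbb-bs: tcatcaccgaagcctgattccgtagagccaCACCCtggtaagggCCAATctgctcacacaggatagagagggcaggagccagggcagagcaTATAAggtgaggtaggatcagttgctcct
Hbb-bt: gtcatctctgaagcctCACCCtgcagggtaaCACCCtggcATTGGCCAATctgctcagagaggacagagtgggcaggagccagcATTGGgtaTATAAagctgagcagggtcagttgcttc
The alpha windows share an unbroken run of 117 bases, and the beta windows match in 72.7% of aligned positions. Hbb-bt has 2 matches of the CACCC box and 3 of the CCAAT box where Hbb-bs has 1 of each. The table held windows for 6 of the 7 genes, all but Hbb-bh1. The CACCC box letters occurred in 6 of these 6 and in 31.7% of 32851 promoter windows of the same length, the CCAAT letters in 5 of 6 against 21.3%, and the TATA letters in 5 of 6 against 11.8%. The letters GATAA (or TTATC), a core of the sites that GATA factors bind, were found in 1 of the 6, that of Hba-x, and in 10.5% of all windows. These are matches of letters and not measured binding sites.

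Exon reads numbered 16291733 to 19070313 per HSC library and 18223082 to 20564901 per HPC library. Levels are CPM, reads scaled to library size after TMM scaling between libraries. A gene with 0 reads in a library could hold up to 3 reads there, or 0.146 to 0.184 CPM, and such limits and the intervals below cover counting error only, since PCR copies are counted as reads. Cd34 transcripts followed the sort, at 102 to 139 CPM in HSC and 1205 (lowest) to 1342 (highest) in HPC. Slamf1, which encodes CD150, lay at 32.1 to 45.5 CPM in HSC and at 2.32 to 3.90 in HPC, although CD150 is in both gates. Kit was at 749 to 1155 CPM in HSC and 652 to 793 in HPC, and Ly6a, which encodes Sca1, at 113 to 152 and 61.0 to 79.4. The libraries also differ in a way that the fractions do not explain. Exon-exon reads, which the files count beside the exon reads, made up 54.8% to 56.8% of exon reads in HSC replicates 3 and 4 and HPC replicates 1 and 2, called the higher set here, and 48.6% to 52.2% in HSC replicates 1 and 2 and HPC replicates 3 and 4, the lower set.

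Of the 7 globin genes 2 were higher in the HSC fraction and passed the test: Hba-a1, 3.89-fold higher, and Hbb-bt, 1.95-fold higher (edgeR quasi-likelihood test on total exon reads, adjusted over 12751 genes). Hba-a2 and Hbb-bs did not pass it, and 3 genes, Hba-x, Hbb-bh1 and Hbb-y, had too few reads to be tested. Over all genes tested, 37.1% were called in either direction and 19.6% were higher in HSC, so calls were common and 2 globin calls are no unusual number. Since these are bulk samples, fewer cells with globin RNA and less globin RNA per cell cannot be told apart.

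Hba-a1 (NCBI gene 15122, mm10 chromosome 11, 32283672 to 32284486, plus strand, 3 exons) had the most total exon reads of the globin genes in every HSC library. In HSC replicates 1 to 4 it stood at 188.1, 67.2, 75.4 and 89.0 CPM, from 3155, 1286, 1500 and 1687 total exon reads. In HPC replicates 1 to 4 it stood at 56.9, 15.1, 7.13 and 28.6 CPM, from 1077, 304, 128 and 518 reads. Every HSC library lay above every HPC library, as for 19.5% of all genes tested, but HSC replicate 1 was far above the other HSC libraries and HPC replicate 1 far above the other HPC libraries. HSC averaged 105 ± 56.2 CPM against 26.9 ± 21.9 for HPC (SD, n = 4 each). The log2 change was 1.96 ± 0.48 (SE), at an edgeR adjusted p of 0.0048. Leaving out HSC replicate 1 gave 1.52 and leaving out HPC replicate 1 gave 2.62 on the log2 scale, the lowest and highest of the 8 fits without 1 library, all past the threshold (edgeR adjusted p at most 0.023).

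Hba-a2 (gene 110257, chromosome 11, 32296492 to 32297310, plus strand, 3 exons) encodes the same kind of chain and had far fewer reads. It stood at 27.7, 11.6, 13.6 and 17.2 CPM in HSC replicates 1 to 4 and at 16.8, 1.89, 2.01 and 8.12 CPM in HPC replicates 1 to 4. HPC replicate 1 lay among the HSC libraries, so the groups overlap. The means were 17.5 ± 7.14 and 7.19 ± 7.01 CPM (SD, n = 4 each), and the log2 change of 1.28 ± 0.54 (SE) missed the threshold (edgeR adjusted p = 0.078). Without HPC replicate 1 it was 2.12 and passed (edgeR adjusted p = 0.0041), and the lowest of the 8 fits, without HPC replicate 2, gave 0.96.

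**Figure D1:**
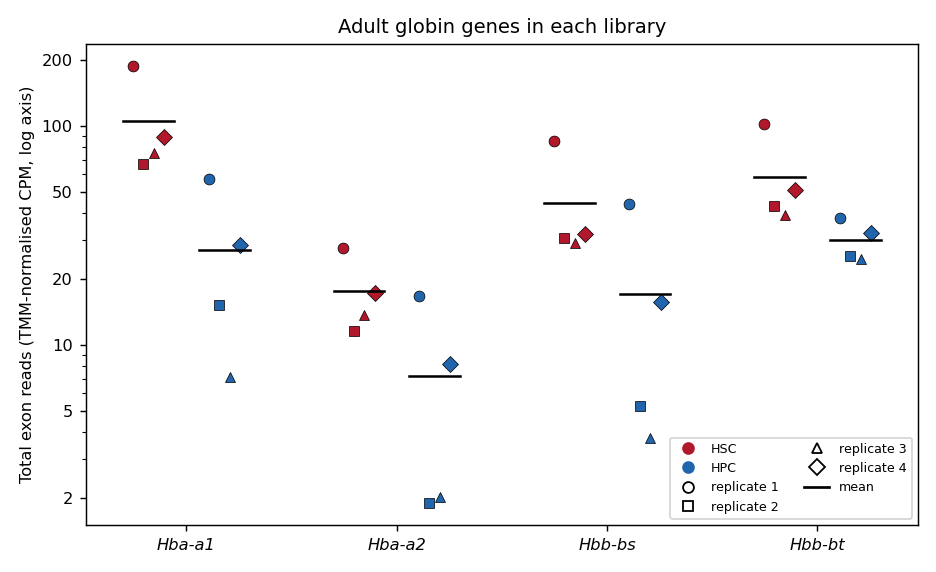
Total exon reads of the 4 adult globin genes in each library, as TMM-normalised CPM on a log axis, with HSC in red, HPC in blue, the replicate number as the symbol and the mean of 4 libraries as a bar. Replicate 1 is the highest library of its fraction for every gene, and HPC libraries spread from 3.73 to 43.8 CPM for Hbb-bs but from 24.6 to 38.0 for Hbb-bt.

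The beta genes differed in how evenly they were measured. Hbb-bs (gene 100503605, chromosome 7, 103826523 to 103827928, minus strand, 3 exons) stood at 85.7, 30.8, 29.1 and 32.1 CPM in HSC replicates 1 to 4. In HPC replicates 1 to 4 it stood at 43.8, 5.27, 3.73 and 15.7 CPM, from 828, 106, 67 and 285 reads. HPC replicate 1 exceeded 3 of the 4 HSC libraries, so the groups overlap. The means were 44.4 ± 27.5 and 17.1 ± 18.5 CPM (SD, n = 4 each), with a log2 change of 1.37 ± 0.59 (SE) that missed the threshold (edgeR adjusted p = 0.085). Without HPC replicate 1 the change was 2.42 and passed (edgeR adjusted p = 0.0021), and without HSC replicate 1 it was 0.84 and did not (edgeR adjusted p = 0.31).

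Hbb-bt (gene 101488143, chromosome 7, 103812524 to 103813923, minus strand, 3 exons) makes nearly the same coding RNA as Hbb-bs but was measured more evenly across HPC libraries. It stood at 101.7, 43.1, 39.1 and 50.7 CPM in HSC replicates 1 to 4 and at 38.0, 25.4, 24.6 and 32.3 CPM in HPC replicates 1 to 4. The groups did not overlap, as for the 19.5% of all genes tested that were apart with HSC higher. The lowest HSC library, replicate 3, was just above the highest HPC library, replicate 1. The means were 58.7 ± 29.1 and 30.1 ± 6.27 CPM (SD, n = 4 each), and the log2 change was 0.96 ± 0.26 (SE), at an edgeR adjusted p of 0.0090. Without HSC replicate 1 the change was 0.56, still past the threshold (edgeR adjusted p at most 0.032 in the 8 fits without 1 library), and it was lost when a fold of at least 1.5 was tested (edgeR adjusted p = 0.13).

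Only part of the reads of each gene could be placed uniquely, and the part differed between the pairs. For Hba-a1 28.0% to 43.1% of total exon reads were unique, and for Hba-a2 13.9% to 39.5%. For Hbb-bs the share was 62.8% to 72.6% and for Hbb-bt 58.6% to 72.3%, against 81.5% to 85.5% over all genes of a library. The other reads fit more than 1 place, and how the submitters' counter divided them is not given in the sources used here. The level of a single gene of a pair, and with it any difference between the genes of a pair, is therefore uncertain.

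Unique reads gave changes of similar size. From unique reads alone, over 12143 genes, HSC averaged 39.6 ± 19.6 CPM of Hba-a1 against 10.4 ± 8.10 for HPC (SD, n = 4 each), and the log2 change was 1.92 ± 0.47 (SE), at an edgeR adjusted p of 0.0050. Hbb-bt had 45.9 ± 20.4 and 23.5 ± 6.29 CPM, with a log2 change of 0.96 ± 0.26 at an edgeR adjusted p of 0.010. The same 2 of 7 genes were called, where 36.4% of all genes were called from unique reads. The groups were apart for Hba-a1, as for 19.1% of all genes, but now overlapped for Hbb-bt, since HSC replicate 2 had 31.7 unique CPM and HPC replicate 1 had 32.5. Hba-a2 had 1.29 ± 0.59 (edgeR adjusted p = 0.11) and Hbb-bs 1.40 ± 0.59 (edgeR adjusted p = 0.081), which again did not pass. Hba-a2 rested on few unique reads in HPC, with 77, 15, 5 and 40 in replicates 1 to 4.

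**Figure D2:**
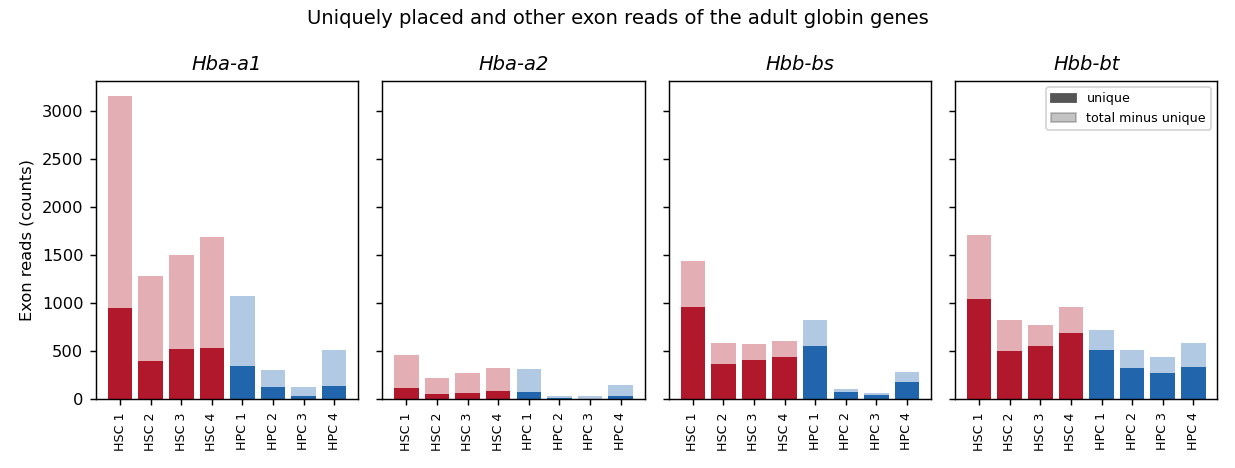
Exon reads of the adult globin genes in each library as stacked bars, HSC in red and HPC in blue, with uniquely placed reads dark and the rest of the total light. Most reads of the alpha genes are light and most of the beta genes dark, in both fractions.

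The sum of each pair does not depend on how reads were divided between its copies, but would count a read again if the submitters' counter entered it under both, which is not known. The alpha pair held 216, 78.8, 89.1 and 106 CPM in HSC replicates 1 to 4 and 73.7, 17.0, 9.14 and 36.7 CPM in HPC replicates 1 to 4. These groups did not overlap, and the means differed 3.59-fold, but HPC replicate 1 came close to HSC replicate 2. Among single genes tested, 19.5% were apart with HSC higher. The beta pair held 187, 73.9, 68.2 and 82.9 CPM in HSC and 81.7, 30.7, 28.4 and 48.0 CPM in HPC, a 2.18-fold difference of means with overlapping groups. The 4 adult genes together took 0.0159% to 0.0415% of exon reads in HSC and 0.00369% to 0.0152% in HPC. The lowest HSC sum was 153 CPM, in replicate 2, and the highest HPC sum 155 CPM, in replicate 1. These sums were not tested.

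The balance between alpha and beta globin reads also differed in these 8 libraries. The alpha pair gave 53.5%, 51.6%, 56.6% and 56.2% of adult globin reads in HSC replicates 1 to 4 and 47.4%, 35.6%, 24.4% and 43.4% in HPC replicates 1 to 4. All HSC libraries lay above all HPC libraries, and by level 19.5% of single genes tested were apart in that way. From unique reads the shares were 34.5% to 38.0% in HSC and 11.4% to 28.2% in HPC, again with no overlap. The mean shares of total reads were 54.5% ± 2.36 and 37.7% ± 10.1 (SD, n = 4 each), and the difference was not tested. The share depends on how multiply placed reads were counted, since they are a larger part of the alpha than of the beta reads. These shares join genes of nearly the same exon length, between 559 and 639 bases.

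Within the beta pair the fractions differed in spread. Hbb-bs made up 45.7%, 41.7%, 42.7% and 38.8% of the reads of the beta pair in HSC replicates 1 to 4. In HPC replicates 1 to 4 it made up 53.6%, 17.2%, 13.2% and 32.8%, with 95% Wilson intervals of 51.1% to 56.0%, 14.4% to 20.3%, 10.5% to 16.4% and 29.8% to 36.0%. The 4 HPC libraries thus ranged from below to above all HSC libraries, and only the intervals of HPC replicates 2 and 3 touch each other. Unique reads gave 51.7%, 18.4%, 14.2% and 34.6% in the same HPC libraries. Hba-a2 made up 12.8% to 16.2% of the alpha pair in HSC, and 22.7%, 11.1%, 22.0% and 22.1% in HPC replicates 1 to 4.

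**Figure D3:**
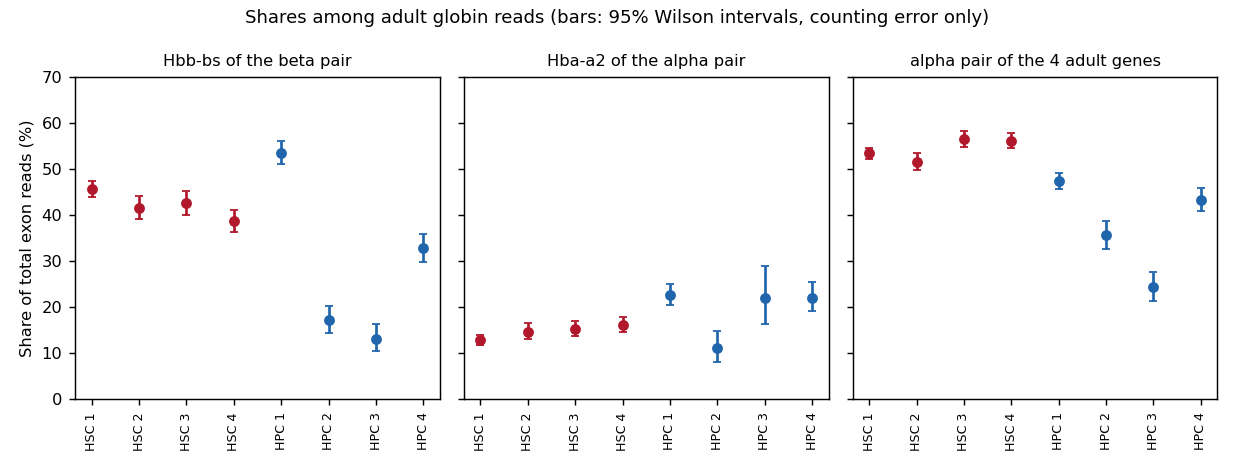
Shares of total exon reads in each library with 95% Wilson intervals (counting error only), for Hbb-bs within the beta pair, Hba-a2 within the alpha pair and the alpha pair within the 4 adult genes, HSC in red and HPC in blue. The HSC shares of Hbb-bs lie between 38.8% and 45.7%, while the HPC shares run from 13.2% to 53.6%.

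Total reads per kilobase of exon, which takes gene length into account, put Hba-a1 first in every HSC library but not in every HPC library. In HSC, Hba-a1 had 188 CPM per kilobase, Hbb-bt 93.1, Hbb-bs 69.5 and Hba-a2 31.1. In HPC, Hba-a1 had 48.2, Hbb-bt 47.7, Hbb-bs 26.8 and Hba-a2 12.8. The first place of Hba-a1 in HPC rests on replicate 1, with 102 CPM per kilobase against 60.2 for Hbb-bt, and by the median over the 4 HPC libraries Hbb-bt (45.8) lay above Hba-a1 (39.1). Each neighbour in the order overlapped with the next in its range over 4 libraries, in HSC and in HPC. Within each HSC library, however, total reads gave the same order, while in HPC the order changed between libraries. Unique reads did not keep Hba-a1 first in HSC. Not scaled by length, they numbered 950, 400, 523 and 539 for Hba-a1 in HSC replicates 1 to 4. Hbb-bt had more in each, at 1046, 502, 553 and 696. The order of these genes thus depends on how multiply placed reads were counted.

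Between libraries of 1 fraction the globin genes, except Hbb-bt in HPC, varied more than nearly all other genes. In HPC, the coefficient of variation was 108% for Hbb-bs, 97.4% for Hba-a2 and 81.2% for Hba-a1, and of the 10280 genes averaging 5 CPM or more only 3, 4 and 6 genes had a larger one. Hbb-bt, at 20.9%, was exceeded by 1745 genes. In HSC it was 62.0% for Hbb-bs, 53.5% for Hba-a1, 49.6% for Hbb-bt and 40.8% for Hba-a2, exceeded by 29, 47, 62 and 129 of 10622 genes. The median gene had 12.5% in each fraction.

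The embryonic genes were at or near 0. Hba-x (gene 15126, chromosome 11, 32276600 to 32278116) had 5 exon reads, all in HSC replicate 4. Hbb-y (gene 15135, chromosome 7, 103851754 to 103853207) had 4 exon reads in the same library, 3 of them unique, and 4 intron reads in HSC replicate 3. Hbb-bh1 (gene 15132, chromosome 7, 103841638 to 103843162) had 0 reads in all 8 libraries, which allows up to 3 reads in each. No embryonic gene had an exon read in an HPC library, and at these counts a difference between the fractions was not detectable.

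Other genes of the globin family were as scarce. Of 14 on a list, 13 had a row in the files, and 7 of those had 0 exon reads in all libraries: Hbb-b2, Hbb-bh0, Hbb-bh3, Hbq1a, the pseudogenes Hba-ps3 and Hba-ps4, and Mb (myoglobin). Hbb-b1, an adult beta gene of another haplotype of the locus, had 1 read in HSC replicate 1 and 2 in HSC replicate 3, and Hbb-bh2 had 1 read in HSC replicate 3. Hbq1b, a theta-type gene of the alpha cluster, had 8, 5, 3 and 5 reads in HSC replicates 1 to 4 and 0, 0, 4 and 2 in HPC replicates 1 to 4. Adgb (androglobin) had 2 to 16 reads per HSC library and 0 to 3 per HPC library, Ngb (neuroglobin) 0 to 4 and 2 to 6, and Cygb (cytoglobin) 0 and 0 to 4. None of them had enough reads to be tested.

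The adult globin genes differed in their exon-exon reads between the library sets, the beta genes and Hba-a1 with no overlap and Hba-a2 with overlap. In the higher set 83.3% to 89.8% of the exon reads of the 4 adult genes were exon-exon reads, and in the lower set 38.2% to 53.8%, a gap many times that of the libraries as a whole. For Hbb-bs the share was 87.8% in HSC replicate 4, 89.1% in HSC replicate 3, 85.1% in HPC replicate 1 and 79.2% in HPC replicate 2. In the lower set it was 37.2% and 35.3% in HSC replicates 1 and 2, and 40.3% and 37.5% in HPC replicates 3 and 4. For Hba-a1 the share was 89.7% to 91.9% in the higher set and 39.0% to 78.1% in the lower set, and for Hbb-bt 81.2% to 86.4% and 36.4% to 46.8%. Hba-a2 ran from 68.4% (HPC replicate 2) to 93.6% in the higher set and from 48.2% to 77.8% (HPC replicate 3) in the lower set. The mean difference between the sets was 47.8 percentage points for Hbb-bs, 44.3 for Hbb-bt, 36.6 for Hba-a1 and 25.3 for Hba-a2. Among 10611 genes with at least 30 exon reads in every library these ranked 4, 6, 15 and 52, and the median gene differed by 4.15 points. Of these, 220 genes had, like the globins, less than 700 bases of exon, and their median was 6.03 points, with 35.6 points at the 95th percentile, above the value of Hba-a2. Since the sets were formed from the same kind of read over the whole library, these values are a description.

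**Figure D4:**
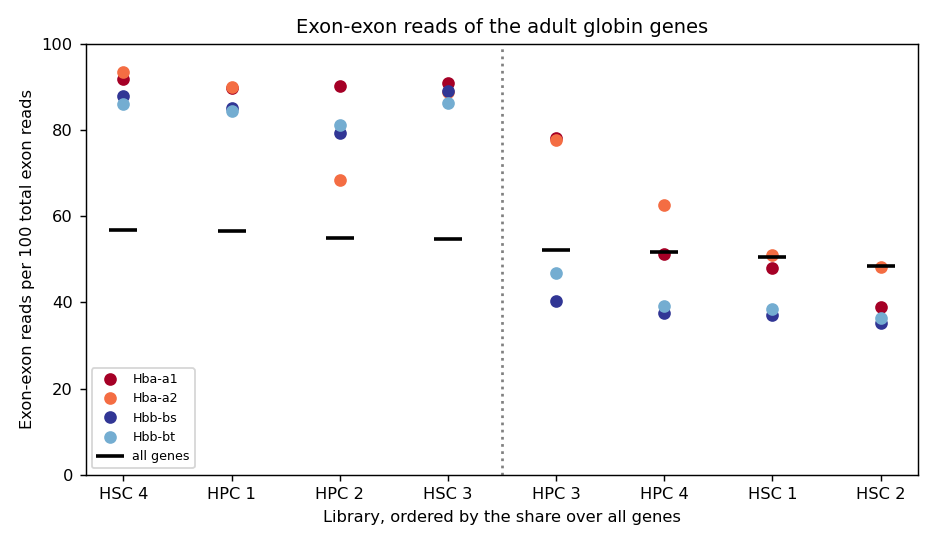
Exon-exon reads per 100 total exon reads for each adult globin gene (coloured points) and for all genes (black bars), with libraries ordered by the share over all genes and a dotted line between the sets. Left of the line the globin points lie above the bar of their library, and right of it the beta genes lie below it.

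Intron reads of the adult genes were few. Hbb-bt had 16 to 51 per library and Hbb-bs 4 to 36, while Hba-a1 had 0 to 8 and Hba-a2 0 or 1. Per 100 exon reads Hbb-bt had 2.34 to 6.56 intron reads in HSC and 2.23 to 8.40 in HPC, so the fractions overlapped. HPC replicate 1, the HPC library with the most globin RNA, had the lowest value for Hbb-bt (2.23) and for Hbb-bs (1.45) among the HPC libraries.

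The comparison of the fractions was repeated within each library set, and no globin gene was called for a difference between the sets. Each set holds 2 libraries of each fraction. Within the lower set all 4 adult genes were called from total reads, where 24.7% of genes were: Hba-a1 changed by 2.84, Hbb-bs by 2.58, Hba-a2 by 1.96 and Hbb-bt by 1.35 on the log2 scale (edgeR adjusted p = 0.0046, 0.0082, 0.028 and 0.013). From unique reads Hba-a2 was not called there (edgeR adjusted p = 0.094). Within the higher set none was called, where 20.1% of genes were: the values were 1.19, 0.32, 0.72 and 0.50 (edgeR adjusted p = 0.11, 0.80, 0.55 and 0.21). HPC replicate 1 and HSC replicate 1, the highest libraries of their fractions, lie in different sets, the first in the higher and the second in the lower. With the set as a term in the fit, Hba-a1 changed by 2.0 ± 0.52 (SE) and Hbb-bt by 0.93 ± 0.27, both called (edgeR adjusted p = 0.0092 and 0.015). The difference between the sets in these changes was 2.25 ± 1.15 (SE) for Hbb-bs, 1.64 ± 0.93 for Hba-a1, 1.22 ± 1.14 for Hba-a2 and 0.84 ± 0.49 for Hbb-bt (edgeR interaction, unadjusted p = 0.075, 0.11, 0.31 and 0.11), and of 12751 genes 0 were called and 364 had an unadjusted p under 0.05.

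**Figure D5:**
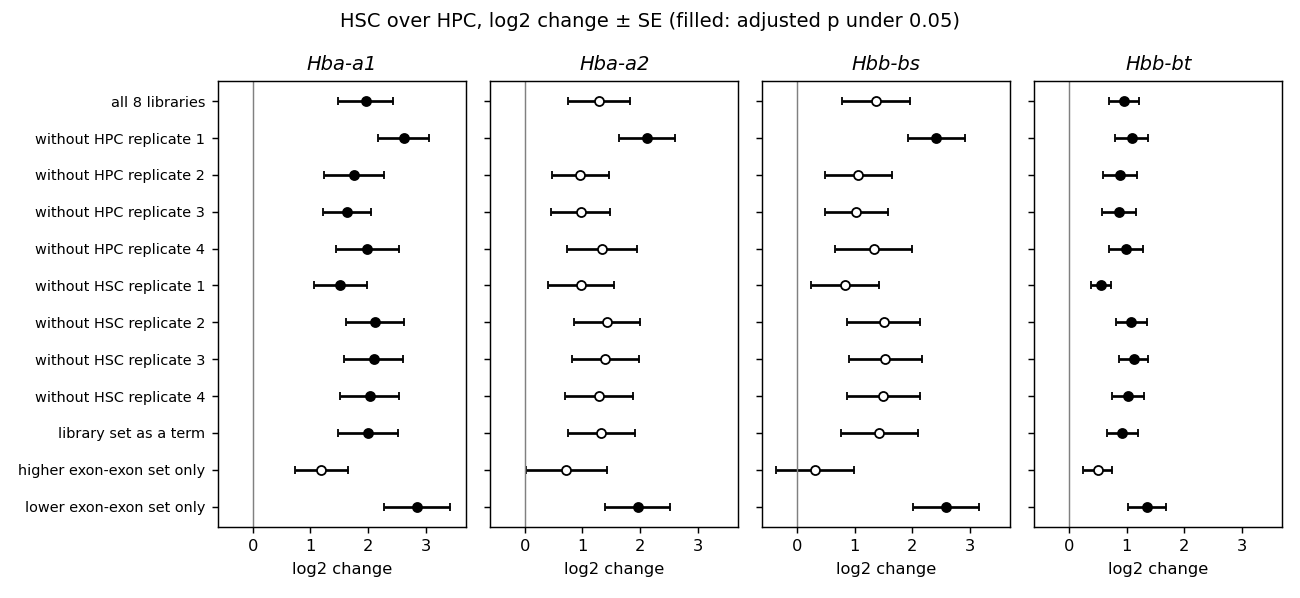
Log2 change of HSC over HPC with its SE for each adult globin gene from total exon reads, in all 8 libraries, without each library in turn, with the library set as a term and within each set, filled where the edgeR adjusted p is under 0.05. Every estimate is above 0, and those without HPC replicate 1 are larger than those without HSC replicate 1 (2.42 against 0.84 for Hbb-bs).

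Several genes that control globin expression were higher in HSC. Of 28 tested globin gene regulators, HSC had higher levels for 15 and lower levels for 3, and 10 had no call. Over all genes tested, 37.1% were called in either direction and 19.6% were higher in HSC. The median log2 change was 0.29, against 0.0031 over all genes. Klf1, the factor that binds the CACCC box of the adult beta genes, averaged 192 ± 40.0 CPM in HSC against 19.0 ± 3.85 for HPC (SD, n = 4 each), 10.1-fold higher at an edgeR adjusted p of 3.0e-09. Gata1, the main erythroid GATA factor, was 3.56-fold higher, and Gfi1b, a repressor in erythroid and megakaryocyte cells, 3.50-fold higher. Lmo2, a bridge between GATA1 and TAL1, and Nfe2, which binds the beta-globin enhancers, were 1.38-fold and 1.53-fold higher, and Myb, at 508 ± 19.7 against 573 ± 39.2 CPM, had no call (edgeR adjusted p = 0.14). The 3 lower regulators, named after their values were seen, were Hmga2, Atrx and Mafk (log2 changes of −1.34, −0.50 and −0.54).

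The heme pathway, which supplies the group that globin chains hold, was split. Of 16 tested genes of heme and erythroid iron use 8 were higher in HSC and 2 lower, and 6 had no call (median log2 change 0.58). Among all genes tested 37.1% were called and 19.6% were higher in HSC. Cpox and Fech, enzymes of heme synthesis, were 3.60-fold and 2.06-fold higher, and the mitochondrial carrier gene Slc25a39 had 188 ± 21.3 against 201 ± 22.6 CPM with no call (edgeR adjusted p = 0.52). The 2 lower genes, named after their values were seen, were Alas1, the first enzyme of heme synthesis in most cells (log2 change −0.72), and Slc25a37, the mitochondrial iron importer (−0.68). Alas2, the erythroid form of that first enzyme, had 52, 41, 18 and 24 reads in HSC replicates 1 to 4 and 29, 3, 11 and 0 in HPC replicates 1 to 4, and had no call (edgeR adjusted p = 0.13).

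Red cell genes were mostly higher in HSC, but their sum did not rank the libraries of a fraction as the globins did. Of 22 red cell membrane and late erythroid markers 18 were higher in HSC and 0 lower, and 4 had no call (Alas2, Slc4a1, Trim58 and Tmcc2). The median log2 change was 3.03, and of all genes tested 19.6% were higher in HSC. Rhag and Rhd, of the Rh complex of the red cell membrane, were 13.4-fold and 15.3-fold higher, and Cldn13, a claudin of erythroid cells, 17.3-fold. All 16 early erythroid progenitor genes were higher (median 2.97), among them Car1 (19.8-fold), Car2 (2.95-fold), Ermap (log2 change 3.91) and Sphk1 (17.2-fold). The red cell markers summed to 909 to 996 CPM in HSC and 372 to 404 in HPC, and HPC replicate 1, the highest in globin, had the lowest of these sums. Slc4a1, which encodes the band 3 anion exchanger and is switched on late like the globins, had 140, 40, 104 and 0 reads in HSC replicates 1 to 4 and 31, 21, 2 and 11 in HPC (edgeR adjusted p = 0.087).

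Markers of other marrow cells were present in both fractions, and their part in the globin values was not tested. For comparison with the counts below, 37.1% of all genes tested were called and 19.6% were higher in HSC. The neutrophil markers (8 of 12 tested, Mmp9 called higher, 7 without a call, Ly6g at 0 reads in all libraries) summed to 62.4, 11.1, 17.6 and 50.2 CPM in HPC replicates 1 to 4 and to 12.1, 34.9, 15.9 and 12.02 in HSC replicates 1 to 4. In HPC the neutrophil sum and the adult globin sum (155, 47.7, 37.5 and 84.7 CPM) were both highest in replicate 1 and next in replicate 4. In HSC the globin sum was highest in replicate 1, at 403 CPM, whose neutrophil sum was among the low ones. Chil3, the most abundant neutrophil marker, averaged 6.31 ± 6.55 CPM in HSC against 20.8 ± 16.4 for HPC (SD, n = 4 each) and had no call (edgeR adjusted p = 0.062). Of the B and plasma cell markers 4 of 9 tested were higher in HSC and 5 without a call (sums of 134 to 209 CPM in HSC and 102 to 201 in HPC). Of the platelet and megakaryocyte markers 6 of 9 were higher, 1 (Itga2b) lower and 2 without a call (293 to 348 and 180 to 227 CPM), with Vwf 14.0-fold higher. Of the markers of macrophages of the erythroblastic island 1 of 9, Cd163, was lower and 8 had no call (28.5 to 44.4 and 38.5 to 48.7 CPM).

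The genes whose profile over the 8 libraries was most like that of the adult globin sum were Bcam, Ifitm1, Fads3, Ecscr and Tgm1. The likeness was the root mean square difference of log2(CPM + 1) profiles centred on their means, among 10450 genes of at least 5 CPM, and came to 0.44, 0.47, 0.49, 0.52 and 0.52. Bcam, which encodes the Lutheran blood group glycoprotein, stood at 24.8, 12.5, 13.7 and 14.9 CPM in HSC replicates 1 to 4 and at 7.40, 4.22, 5.07 and 5.80 in HPC replicates 1 to 4. Replicate 1 was its highest library in each fraction, as for the globins. A flat profile would differ from the globin sum by 1.03.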

How the data were processed

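RNA from 5000 sorted cells was extracted with ISOGEN, made into cDNA with the SMARTer Pico kit and 18 PCR cycles, and built into libraries with Nextera XT, per the labels' protocols. The build was mm10, per the submitters' processing notes. Not given in the sources used here are the aligner, the counter, its treatment of multiply placed reads and its use of strand, so reads of overlapping or antisense genes cannot be told apart. Per the file headers, the deposited counts give reads in exons, introns and across exons, all in a total and a unique form. The authors also deposited RPKM (scaled by exon length and library size), TPM (scaled to a fixed sum) and fractions (unique to total and intron to gene reads), per the file headers, and none of these was used.

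Rows were summed per gene ID. The test was that of edgeR 4.0.16 on R 4.3.3 (filterByExpr, TMM, quasi-likelihood F test of HSC over HPC with no covariate, Benjamini-Hochberg adjustment over all genes, threshold 0.05). The SE is the size of a change over the root of its F. Alternatives used limma 3.58.1 and DESeq2 1.42.0. In simulated counts for these libraries (12799 genes), the test found 92 of the 100 genes set to change 2-fold and 100 of 100 set to 4-fold, and 9 of its 201 calls were false. Every gene was simulated with the same dispersion, the spread between libraries beyond counting error. These rates do not carry over to the globin genes, which, except Hbb-bt in HPC, varied more than nearly all other genes. Libraries of a fraction differed by more than counting noise (mean chi-square per gene 11.6 to 38.7 over 12 pairs). The members and lists were chosen with earlier results of these data known. Named beside the members were, from each list, the 3 most abundant tested genes and the 3 called genes of at least 5 CPM with the largest change, not all of which are described, and the 5 nearest profiles; other list genes named were chosen after their values were seen. The symbol Ahsp and 2 others of the lists were not matched.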

Additional observations from a re-analysis of the deposited data

Results flagged for a closer look

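Among 36 groups of 4 libraries examined, 4 held a library set far apart from the other 3. Chance alone gives about 1 in 20 only for independent groups of normally distributed values. These groups share reads, such as total and unique reads of the same gene, so no excess over chance can be read from the count. In HSC, Hbb-bs stood at 85.7 CPM in replicate 1 and at 29.1 to 32.1 CPM in the other libraries, and from unique reads at 69.0 against 23.3 to 27.5 CPM. In HPC, the share of Hba-a2 in the alpha pair was 11.1% in replicate 2 and 22.0% to 22.7% in the others. The share of the alpha pair in unique adult globin reads was 11.4% in HPC replicate 3 and 26.1% to 28.2% in the others.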

How the results depend on the processing

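None of the alternatives run reversed the direction of any of the 4 tested globin genes. Of 7 globin genes 2 were called from total and from unique reads. From total reads 4 were called with no count filter, 4 with the replicate number as a block, 4 with voom and sample quality weights, and 1 with a tested fold of 1.5; from unique reads 4, 4 and 1 were called under the last 3. Leaving out each library gave 2 to 4 called, with 4 only without HPC replicate 1. RLE and upper quartile scaling, a stricter filter, DESeq2, main-assembly rows and, for total reads, whole-gene reads gave 2. Hba-a1 was called under all 19 alternatives for total reads that used both library sets, with log2 changes of 1.52 to 2.62, Hbb-bt under 18, Hba-a2 and Hbb-bs under 4 each; the cause was not tested. Genes called went from 4733 to 2099 for total and from 4423 to 1986 for unique reads with the tested fold, since that test asks for more, and to 4184 to 4587 and 3914 to 4287 without 1 library. Same-numbered libraries did not deviate together in every pair (r of 0.02, −0.19, 0.22 and 0.36 for numbers 1 to 4 over 10569 genes). Differently numbered libraries had r of −0.46 to 0.22. The numbers were not taken to pair the libraries, though a pairing is not excluded. With the replicate block 5036 genes were called, Hba-a2 changed by 1.71 and Hbb-bs by 1.79 (edgeR adjusted p = 0.0019 and 0.00069). The fits with the library sets were added after seeing the data. Hba-a2 had only 5 to 77 unique reads per HPC library, and the part of counting error in its result was not tested.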
